A study of Mus musculus with 20 samples.

Results

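The nuclear genes for the subunits of the mitochondrial respiratory chain and ATP synthase were followed by RNA-seq in mouse TH17 cells, the CD4 T cells that make interleukin-17. They were chosen by gene symbol alone, as every row named Ndufa, Ndufb, Ndufc, Ndufs or Ndufv with a number (or Ndufab1), Sdha to Sdhd, Uqcr, Cox4 to Cox8, or Atp5. The pattern took 84 of 24862 gene rows: 38 for complex I, 4 for complex II, 8 for complex III, 18 for complex IV and 16 for complex V. A few of these symbols do not name structural subunits. Cox7a2l is a supercomplex assembly factor, Atp5s is ATP synthase coupling factor B, and Ndufa4l2 is a relative of Ndufa4. Ndufa4 was kept with complex I by its name, although its protein is now counted with complex IV.

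Complex I takes electrons from NADH and complex II, succinate dehydrogenase, takes them from succinate in the citric acid cycle. Complex III passes them to cytochrome c and complex IV, cytochrome c oxidase, passes them to oxygen. Complexes I, III and IV pump protons, and complex V, the ATP synthase, uses the proton gradient to make ATP. Activated T cells combine respiration with aerobic glycolysis, and the title of the series links glycolysis of pathogenic TH17 cells to a pathway of miR-21, Peli1 and c-Rel.

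All mice were C57BL/6, and 12 RNA-seq libraries formed 6 groups of 2. For the CNS and ileum groups, GFP-positive TH17 cells were sorted from tissue suspensions, 50000 cells a sample. The gene that drove GFP is not given in the labels. The Ad-control and Ad-c-Rel groups were TH17(β) cells, grown from naive CD4 T cells with 2 ng/ml TGF-β1 and 20 ng/ml IL-6, with a control or with overexpression of c-Rel, an NF-κB subunit encoded by Rel. The miR-21-/- and Control groups were TH17(23) cells from knockout or control mice, grown with 3 cytokines at 20 ng/ml each: IL-23, IL-1β and IL-6. Both cultures were stimulated through CD3 and CD28 with antibodies to IL-4 and IFN-γ present. Nothing in the labels tells if the 2 replicates of a group were separate animals or cultures, so every p-value measures the spread between these libraries, which may be technical. A further 8 samples, for ATAC-seq, were not analysed here.

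Gene counts summed to between 15421743 and 19930807 in the CNS, ileum and Ad libraries and to between 32766097 and 36711252 in the miR-21-/- and Control libraries. The sorted libraries were the noisier ones, with a correlation of replicates over genes of 0.914 in CNS and 0.901 in ileum against 0.988 to 0.996 elsewhere. The 2 CNS libraries held a count for 14224 and 11545 genes, and the 2 ileum libraries for 13927 and 10771. Rel was at 58.5 and 63.5 scaled CPM (counts per 1000000 after TMM scaling) in the Ad-c-Rel libraries against 10.5 and 6.97 in Ad-control. Mir21a, the precursor gene of miR-21, had 0 counts in both knockout libraries and 25 and 20 in the Control libraries. The 13 T cell identity genes in the tables were detected in all 12 libraries. The CNS libraries also held far more myeloid and microglial RNA: the 22 markers of that list summed to 31649 and 32959 CPM in CNS against 3445 and 3666 in ileum, and 193 to 440 in the cultured libraries. In bulk samples like these, fewer cells of a type and less RNA per cell cannot be told apart.

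Respiratory chain transcripts were a small and steady part of the RNA within each pair of groups. Summed over the 84 genes, they reached 12820 ± 1228 CPM (counts per 1000000 gene counts, mean ± SD, n = 2 here and for the sums that follow) in CNS, 11910 ± 592 in ileum, 11908 ± 43.1 in Ad-control, 11436 ± 312 in Ad-c-Rel, 8039 ± 352 in Control and 7645 ± 206 in miR-21-/-. The CNS libraries, at 11952 and 13688 CPM, overlapped with the ileum libraries at 11491 and 12328. The knockout libraries, at 7790 and 7499, overlapped at their edge with Control, at 8288 and 7790. In CPM without TMM, the Ad-c-Rel libraries, at 11657 and 11216, lay below the Ad-control libraries at 11938 and 11877. This order depends on the scaling. TMM factors were 0.9839 and 0.97601 in Ad-c-Rel and 1.0325 and 1.0085 in Ad-control, so TMM raises the first pair and lowers the second. The members' median log2 difference was −0.026 with library totals and 0.03 with TMM. All 4 libraries of the TH17(23) cultures lay below the other 8. The library kits differed: a low-input SMART-Seq v4 kit was used for the sorted cells and a stranded total RNA kit for the miR-21 cultures, and the kit of the Ad libraries is not clearly given. Kit, culture and cell source therefore cannot be told apart between the 3 pairs. Cytosolic ribosomal protein genes took 95210 to 128300 CPM in the TH17(23) libraries against 30339 to 39874 in the other 8.

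The complexes did not keep the same proportions in the 3 pairs. Complex II made up 11.6% of all respiratory chain counts in Ad-control and 10.6% in Ad-c-Rel, against 5.33% to 6.62% in the other 4 groups. Complex IV was the reverse, at 13.3% and 13.9% in the 2 Ad groups and 18.7% to 20.7% elsewhere. Complex V took 41.0% in Control and 39.3% in miR-21-/-, against 29.6% to 36.4% in the other groups. Complex I was at 24.3% and 24.0% in these TH17(23) groups and at 26.3% to 32.7% elsewhere.

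In absolute terms, complex I summed to 1957 ± 85.4 CPM in Control and 3868 ± 113 in Ad-control, while complex IV was nearly level between them, at 1503 ± 23.8 and 1581 ± 55.6. As a ratio of group means complex II ranged most, from 408 ± 20.1 CPM in miR-21-/- to 1385 ± 9.05 in Ad-control. Within the pairs, complex II separated all 3: the CNS libraries (831 and 860) lay above the ileum libraries (652 and 688), Ad-c-Rel (1209 and 1205) below Ad-control (1379 and 1392), and the knockout (422 and 394) below Control (480 and 446). With 2 libraries against 2 these sums were described and not tested. Such separation is common among single genes. After TMM scaling, 32.3% of all genes lay wholly higher and 27.5% wholly lower in CNS against ileum. The shares were 27.8% and 28.7% for Ad-c-Rel against Ad-control, and 27% and 28.9% for the knockout against Control.

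**Figure D1:**
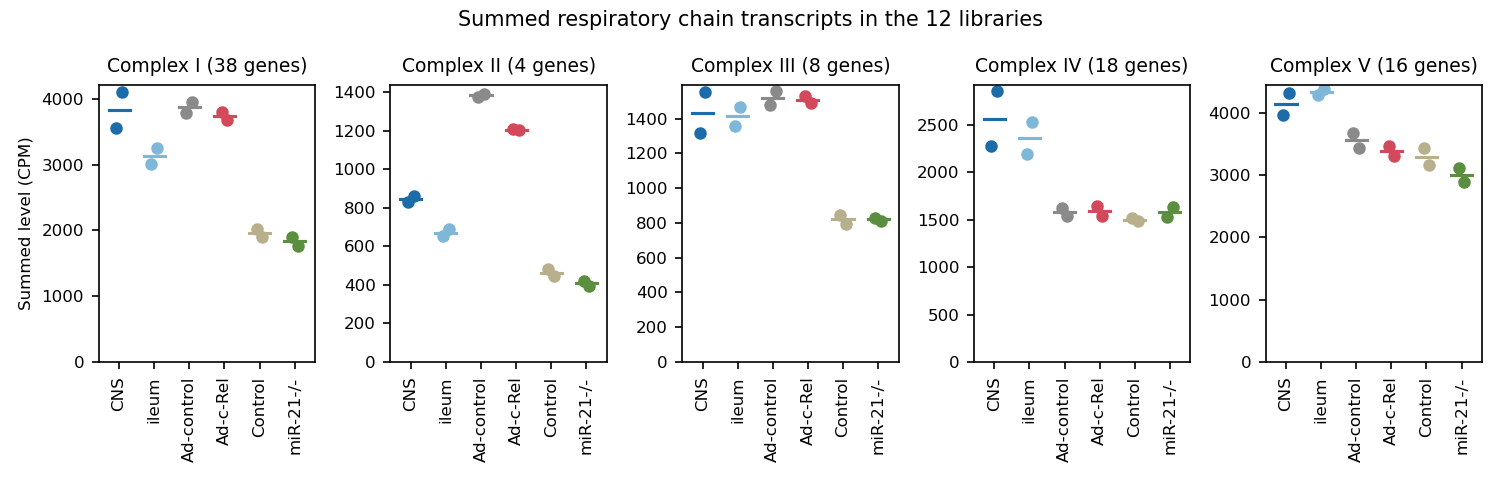
Summed CPM of the genes of each complex (linear vertical axes from 0, a separate scale for each panel) in the 12 libraries; points are single libraries and bars are group means. Complex II was at 1379 and 1392 in Ad-control and at most 860 in every sorted or TH17(23) library. Complexes I, II and III were lowest in the TH17(23) pair, and complex V had its lowest group means there.

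Of the 84 genes, 75 were at a mean of at least 5 CPM in every group. Their highest group mean exceeded their lowest by a median of 2.62-fold. The widest range belonged to Uqcr11, a small subunit of complex III, at 104 CPM in CNS and 14.0 in miR-21-/-, or 7.41-fold. Ndufa1, an accessory subunit of complex I encoded on the X chromosome, ranged 6.55-fold, and Uqcrc1, a core protein of complex III, ranged 5.43-fold from 104 CPM in miR-21-/- to 566 in Ad-control. The steadiest was Atp5a1, the catalytic-head α subunit of ATP synthase, at 526 CPM in Ad-c-Rel and 676 in ileum, or 1.28-fold. Of the 75 genes, 41 had their lowest mean in miR-21-/- and 13 in Control. The highest mean fell in CNS for 31, in Ad-control for 20 and in ileum for 14. These counts use CPM without TMM scaling, and no share over all genes was taken beside them. In the scaled fit of the knockout against Control, 35 of 79 tested members were above 0 and 44 below.

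Complex IV has subunits with alternative genes, some of them restricted to heart and muscle, lung or testis, beside a ubiquitous partner. Cox7b2 and Cox8c, known from testis, were listed at 0 counts in all 12 libraries, as was the complex I gene Ndufs5. Ndufs5 is a usual subunit of complex I in other tissues, and its zeros were not interpreted. Cox8b, a muscle form, had no more than 5 counts in any group. The other alternative genes differed in level between the pairs.

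Cox4i2, the alternative form of subunit 4 known from lung, was at 10.2 and 10.7 CPM in Ad-control and 11.0 and 9.62 in Ad-c-Rel. It was at 3.68 and 3.68 in Control, 4.42 and 4.42 in miR-21-/-, and at 0.178 CPM or below in the 4 sorted libraries. Its share of the counts of the Cox4i1 and Cox4i2 genes was thus 3.74% to 4.09% in TH17(β) cells and 1.49% to 1.79% in TH17(23) cells. The ubiquitous Cox4i1 was at 241 to 271 CPM in both cultures and 338 to 533 in the sorted cells.

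Cox7a1, the heart and muscle form of subunit 7a, was at 6.27 to 10.1 CPM in TH17(β) cells and 5.55 to 12.2 in TH17(23) cells. In the sorted cells it was at 1.29 and 6.34 CPM in ileum and at 0.178 and 0 in CNS. Its partner Cox7a2 was at 72.2 to 91.6 CPM in the cultures and 120 to 152 in the sorted cells. Cox6b2, known from testis, was at 11.8 and 15.7 CPM in miR-21-/-, 5.08 and 7.03 in Control, 3.77 to 4.72 in the Ad libraries and 0 to 1.23 in the sorted libraries. Cox6a2, the heart and muscle form of subunit 6a, was at 12.1 and 20.9 CPM in CNS and at most 0.804 CPM in the other 10 libraries. None of the 4 alternative genes exceeded 11.5% of its family's counts, except Cox7a1 at 13.3% in 1 Control library.

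The c ring of ATP synthase is built from a single protein that 3 genes, Atp5g1, Atp5g2 and Atp5g3, encode with different targeting peptides. Atp5g2 supplied 50.3% and 51.6% of their summed counts in Control and 57.2% and 62.4% in miR-21-/-, against 19.8% to 29.0% in the other 8 libraries. In CPM, Atp5g2 was at 194 to 243 in the TH17(23) libraries and at 66.3 to 124 in the others. Atp5g1 moved the other way, at 8.35% to 11.7% in TH17(23) libraries against 22.0% to 32.8%. The shares are of counts, not corrected for transcript length, and reads that align to several places were handled differently in the miR-21-/- and Control tables, whose line for such reads is 0 (2.25% to 3.52% elsewhere). Near-identical copies of these genes could therefore be counted differently there.

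**Figure D2:**
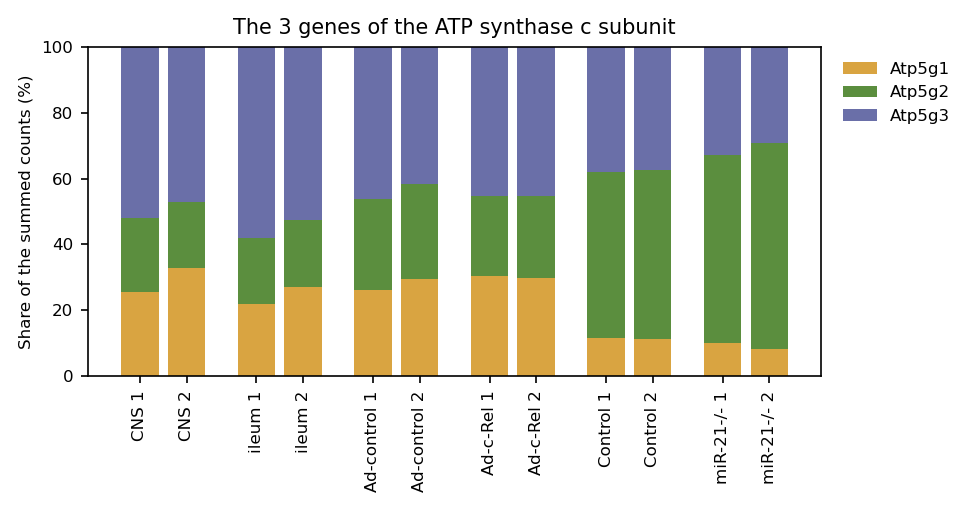
Share (%) of the summed counts of Atp5g1, Atp5g2 and Atp5g3 taken by each gene in each of the 12 libraries, 1 bar a library. Atp5g2 takes 50.3% to 62.4% in the 4 TH17(23) libraries and at most 29.0% elsewhere.

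Overexpression of c-Rel in TH17(β) cells left most respiratory chain transcripts within a narrow range. In Ad-c-Rel against Ad-control, 2 members rose and 2 fell of 78 tested (edgeR quasi-likelihood F test over all genes, Benjamini-Hochberg adjusted p below 0.05). Of all 11711 genes tested, 8.16% were called higher and 6.12% lower, or 14.3% in either direction, against 5.13% of the members. The members' fitted differences ran from −0.26 to 0.58 on the log2 scale, and none reached 2-fold, which 3.41% of all genes did. Their median was 0.03, beside −0.01 for all genes. The median standard error (SE) of a member was 0.083, against 0.11 over all genes.

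Uqcrq, a small subunit that helps hold complex III together, was at 106 and 99.0 scaled CPM in Ad-c-Rel against 79.2 and 86.0 in Ad-control. Both c-Rel libraries were above both controls, and the log2 fold change was 0.31 (SE 0.083, edgeR adjusted p = 0.0211). The call was lost without the first Ad-c-Rel library (adjusted p = 0.164) or the first Ad-control library (0.119).

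Cox7a1 was at 10.2 and 10.0 scaled CPM in Ad-c-Rel against 7.41 and 6.22 in Ad-control. The groups did not overlap, and the log2 fold change was 0.58 (SE 0.16, edgeR adjusted p = 0.0265). Its call was lost without either Ad-c-Rel library (0.0764 and 0.0709) and without the second Ad-control library (0.144), and DESeq2 did not call it (0.114).

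Sdha encodes the flavoprotein subunit of succinate dehydrogenase, the one that oxidises succinate. It was at 510 and 519 scaled CPM in Ad-c-Rel against 598 and 612 in Ad-control, with no overlap (log2 fold change −0.23, SE 0.072, edgeR adjusted p = 0.0411). Atp5c1, the γ subunit that forms the rotating stalk of ATP synthase, was at 433 and 401 against 491 and 492 scaled CPM. Its groups did not overlap either (log2 fold change −0.24, SE 0.074, edgeR adjusted p = 0.0452). Both calls lie near the threshold and ended without any 1 of the 4 libraries (adjusted p of 0.0503 to 0.246 for Sdha and 0.0714 to 0.385 for Atp5c1). The split of the calls depended on scaling: with library totals in place of TMM, Uqcrq (0.0512) and Cox7a1 (0.0551) were not called, and 0 members rose and 4 fell. Over all genes that scaling gave 669 higher and 1027 lower, against 956 and 717.

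The 3 other genes of complex II were not called. Sdhc, a membrane anchor, was at 178 and 168 scaled CPM against 192 and 199 (log2 fold change −0.17, edgeR adjusted p = 0.136). Sdhd, the other anchor, was at 291 and 306 against 310 and 324 (−0.09, 0.466), and Sdhb, the iron-sulphur subunit, at 251 and 242 against 237 and 245 (0.03, 0.808). Sdha, Sdhc and Sdhd were lower in both c-Rel libraries than in both controls, while the groups overlapped for Sdhb. In complex IV, 13 of 14 tested members had a fitted value above 0, against 49% of all genes, with a median of 0.07. The 1 below 0 was Cox7a2 at −0.06, the partner of Cox7a1. The number above 0 depends on the scaling. With library totals Cox4i2 changed sign, and the median of all 78 tested members was −0.026, against 0.03 with TMM. In CPM without TMM, further members of complex IV had a lower mean in Ad-c-Rel than in Ad-control. They were Cox6a1 (216 against 217), Cox7a2l (245 against 253), Cox7b (70.2 against 73.1) and Cox7c (73.2 against 74.7). The rest, except Cox4i2 and Cox7a2, had a higher mean. Complex I had a median of 0.02 and ran from Ndufs7, a core subunit that carries the last iron-sulphur cluster (−0.26, edgeR adjusted p = 0.0598), to Ndufb6, a membrane-arm accessory subunit (0.24, 0.0639). Of its 7 core subunits, 2 were above 0.

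Groups did not overlap for 19 members that were higher and 12 that were lower in Ad-c-Rel, of 78. Over all genes the shares were 27.8% and 28.7%. Genes that serve the chain without being subunits gave few calls: 2 of 42 tested assembly factors rose. They were Cox17, a copper chaperone of complex IV (log2 fold change 0.36, SE 0.093, edgeR adjusted p = 0.0175), and Timmdc1, a complex I assembly factor (0.42, SE 0.14, 0.0494). Cycs, cytochrome c, was at 251 and 250 scaled CPM against 190 and 216 and also rose (0.30, SE 0.079, 0.0190), the only call among 8 subunits and carriers outside the symbol pattern. None of 17 tested regulators of respiratory genes was called, 2 of 78 mitochondrial ribosomal genes rose (Mrpl17 and Mrpl45), and 2 of 79 cytosolic ribosomal genes rose (Rpl7l1 and Rps26).

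**Figure D3:**
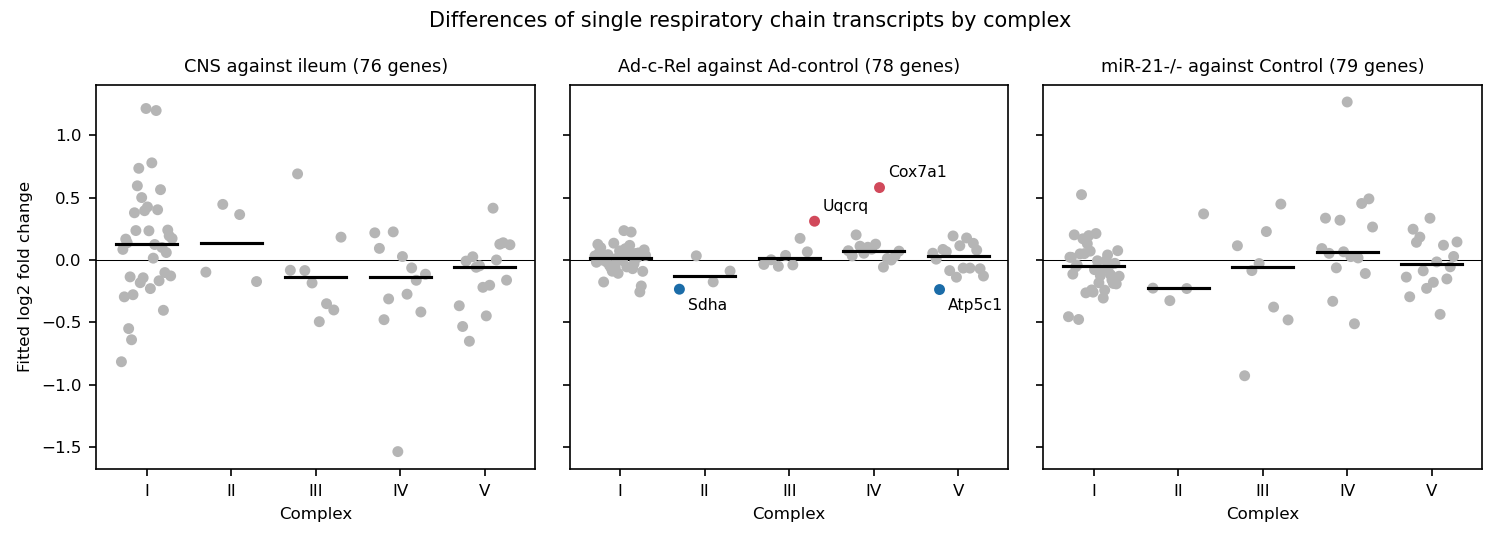
Fitted log2 fold change (linear axis) of each tested member by complex in the 3 comparisons; red and blue points passed edgeR's adjusted p of 0.05, grey points did not, and black bars are medians of the points drawn. Cox6a2 and Cox7a1 are left out of the first panel because 1 group had at most 3 counts; the spread is narrowest for Ad-c-Rel against Ad-control, where the 4 called genes are named.

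Between the sorted CNS and ileum libraries under TMM scaling, the chain as a whole was at a similar level, and a single member was called. Of 78 tested members 1 was higher in CNS and 0 lower, where 4% of the 12038 genes tested were called higher and 5.66% lower, or 9.66% in all. At an unadjusted p below 0.05, 7 were higher and 8 lower, against 11.4% and 13% of all genes, and DESeq2 called 7 and 9, beside 29.5% of all genes. A fitted difference of at least 2-fold was seen for 5 members, against 40.6% of all genes. The median SE over all genes was 0.56, above that of the members, so these shares rest on estimates of unlike noise. The members' median log2 difference was −0.03, and that of all genes 0.08. The median SE of a member was 0.23, against 0.083 in the Ad pair, so differences as small as those called there could not be resolved between the tissues. With scaling to the T cell identity genes in place of TMM, the members' median was 0.41 and that of all genes 0.52. Then 5 members were called higher and 0 lower, or 6.41%, beside 11.1% of all genes.

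The gene called with TMM scaling was Cox6a2. It had 203 and 401 counts in the CNS libraries and 0 in both ileum libraries, or 11.1 and 19.7 scaled CPM against 0. With a floor of 3 counts over the ileum group (counting error only), it was at least 162-fold higher in CNS (edgeR adjusted p = 0.0298). The call was lost without the second CNS library (adjusted p = 0.148). Its ubiquitous partner Cox6a1 overlapped between the tissues, at 288 and 356 CPM in CNS and 306 and 392 in ileum, so that Cox6a2 made up 4.02% (95% exact binomial interval 3.50% to 4.60%) and 5.54% (5.02% to 6.09%) of the pair's counts in CNS, not corrected for length.

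RefSeq places the end of Cox6a2, at chr7:128205435-128206366 (GRCm38.p6), over the end of Itgad, a myeloid integrin gene, and the strand setting of the counting is not given. Itgad had 0 counts in both CNS libraries. Other markers also differed between the tissues, where 32.3% of all genes lay wholly higher and 27.5% wholly lower in CNS. Siglech, known from plasmacytoid dendritic cells and microglia, was at 162 and 154 CPM in CNS against 0 and 0.0587 in ileum, and 21 of 22 myeloid and microglial markers were called higher in CNS. Of the 8 plasmacytoid dendritic cell genes set beside it after Cox6a2 was seen, the sum was 766 and 788 CPM in CNS against 267 and 302 in ileum, with Klk1 and Spib at 0 in the second CNS library. Irf8, Siglech and Runx2 made up most of that sum, and members of the list differed in direction: Ly6d was at 4.04 and 0.052 CPM in CNS against 31.4 and 48.2 in ileum, and Spib at 2.14 and 0 against 4.55 and 14.1. The muscle list, also chosen then, summed to 7.91 and 14.9 CPM against 3.26 and 2.93, with Ckm, Myh4, Myl1 and Actc1 at 0 in all 4 libraries. Tnni2, fast skeletal troponin I, of the same list had 62 and 188 counts in CNS (3.69 and 9.78 CPM) and 0 in both ileum libraries, so it was seen in the same libraries as Cox6a2, and Acta1 had 8 counts in the first CNS library only. The part of these cells in the Cox6a2 counts was not tested.

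Cox7a1 had 3 counts in the CNS libraries together and 129 in the ileum libraries, or 53.4 times as many after scaling (95% interval for counting error 17.9 to 262). Its ileum libraries differed widely, at 1.41 and 6.69 scaled CPM, and it was not called (edgeR adjusted p = 0.277), though DESeq2 called it lower in CNS (adjusted p = 0.0206). Cox6b2 had 11 and 28 counts and overlapped.

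Complex I held the largest positive and negative differences among the abundant subunits. Ndufb3, an accessory subunit of the membrane arm, was at 62.3 and 76.8 scaled CPM in CNS and 32.0 and 28.0 in ileum (log2 fold change 1.21, SE 0.30, edgeR adjusted p = 0.0697). Ndufc1, chosen here after its value was seen, was at 43.4 and 74.4 against 30.8 and 20.6. Ndufa1 went the other way, at 126 and 112 against 202 and 216 (−0.81, SE 0.18, edgeR adjusted p = 0.0513). Neither Ndufb3 nor Ndufa1 overlapped between the tissues. Complex I as a whole had a median of 0.13 with 23 of 36 tested members above 0, against 52.7% of all genes, and its 7 core subunits ran from −0.17 to 0.56.

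Under TMM scaling, complexes III to V had medians of −0.13, −0.14 and −0.05. Signs this near 0 depend on the scaling. The median of all members was −0.03 with TMM, 0.17 with library totals and 0.41 with T cell scaling. In complex III, Uqcr11 was at 92.7 and 101 scaled CPM in CNS and 51.6 and 68.7 in ileum (0.69, edgeR adjusted p = 0.188), and Uqcrc2, a core protein, at 129 and 140 against 162 and 216 (−0.49, 0.236). In complex V, 10 of 16 members were below 0 with TMM, against 47.3% of all genes, and this number too depends on the scaling. Atp5d, the δ subunit, was at 184 and 239 against 335 and 328 (−0.65, edgeR adjusted p = 0.0975), and Atp5j, coupling factor 6, at 204 and 269 against 171 and 184 (0.42, 0.280). Cox5b of complex IV was at 168 and 196 against 242 and 264 (−0.48, 0.164). None of these differences passed the test.

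In complex II, Sdhb was at 249 and 332 scaled CPM in CNS and 207 and 220 in ileum (0.45, edgeR adjusted p = 0.243), and Sdhc at 110 and 141 against 89.5 and 105 (0.36, 0.423). Sdha, at 272 and 193 against 274 and 224, and Sdhd, at 137 and 146 against 141 and 178, overlapped. Over the chain, groups did not overlap for 15 members that were higher and 19 that were lower in CNS, against 32.3% and 27.5% of all genes.

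Beside the members, 2 of 8 carriers and subunits outside the symbol pattern fell. Usmg5, a small membrane subunit of ATP synthase, was at 99.8 and 106 scaled CPM in CNS and 354 and 443 in ileum (log2 fold change −1.96, SE 0.18, edgeR adjusted p = 0.00415). Etfdh, which feeds electrons from fatty acid oxidation to ubiquinone, was at 47.1 and 46.7 against 97.4 and 127 (−1.26, SE 0.26, 0.0419). Of 16 tested regulators of respiratory genes, 1 was called. That was Gabpb1, the β subunit of GABP, a factor known to act on many promoters of this chain, at 52.2 and 64.2 against 530 and 531 (−3.19, SE 0.18, 0.00106). None of 43 assembly factors (median 0.41) and none of 78 mitochondrial ribosomal genes (median 0.24) was called. Of 80 cytosolic ribosomal genes, 2 fell (Rplp0 and Rps13), and 74 were below 0 with a median of −0.30.

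Markers of other cells differed between the tissues too. B and plasma cell markers summed to 353 and 359 CPM in CNS and 4529 and 4395 in ileum, neutrophil markers to 232 and 228 against 0.800 and 0.117, and T cell identity genes to 5631 and 5726 against 6814 and 6652. With library totals the median of all genes moved from 0.08 to 0.28 and with scaling to the T cell identity genes to 0.52, and the members' median then moved to 0.17 and 0.41. Relative to all genes it was −0.10, −0.11 and −0.11 under the 3 scalings, but it depended on single libraries: it was 0.12 without the first CNS library, −0.25 without the second, −0.34 without the first ileum library and −0.0073 without the second. Among the members whose fold change is printed, Sdha and Sdhd changed sign under both alternative scalings.

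In TH17(23) cells without miR-21, no member was called of 79 tested, and edgeR called 0% of 13428 genes. At an unadjusted p below 0.05, 5 members were higher and 6 lower in the knockout, against 9.6% and 11.4% of all genes. DESeq2 called 1 member higher (Cox6b2, adjusted p = 0.00562) and 1 lower (Uqcr11, 0.00921), beside 6.14% of all genes. The members' median was −0.03 and that of all genes −0.02, with a median SE of 0.13 for a member and 0.20 over all genes. Complex II had the lowest median, −0.23, and complex IV the highest, 0.07. An edgeR fit with a block for the replicate number called 7 members higher and 10 lower, 21.5% beside 35.8% of all genes. No label says that these numbers pair the samples.

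Without the block, the 5 members of smallest p were Uqcr11, Cox6b2, Uqcrq, Ndufa1 and Atp5j. Uqcr11 was at 16.0 and 12.4 scaled CPM in the knockout and 29.8 and 24.2 in Control (log2 fold change −0.93, SE 0.20, edgeR adjusted p = 0.134). Uqcrq, also of complex III, was at 51.0 and 51.2 against 74.0 and 68.5 (−0.48, SE 0.12, 0.140). Cox6b2 was at 11.3 and 17.2 against 4.87 and 7.0 (1.27, SE 0.30, 0.139), and was the only member past 2-fold, which 7.53% of all genes were. None of these 3 genes overlapped between the groups.

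Ndufa1 was at 29.6 and 31.4 scaled CPM in the knockout against 40.7 and 42.8 (−0.45, edgeR adjusted p = 0.158), and Atp5j at 71.0 and 63.2 against 91.3 and 90.2 (−0.43, 0.161). Both knockout libraries were below both Control libraries for each. Without the first knockout library edgeR called 4 members higher (Cox6b2, Cox7a2l, Cox7c and Ndufa6) and 2 lower (Ndufa4 and Uqcr11), beside 9.62% of all genes. The lone knockout library is then assumed to vary like Control.

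Within complex II the 4 genes differed in sign: Sdhd was at 97.0 and 111 scaled CPM in the knockout against 80.3 and 81.0 (0.37, edgeR adjusted p = 0.197), while Sdhb was at 71.8 and 61.4 against 88.6 and 78.3 (−0.33, 0.260). Sdha was at 170 and 200 against 216 and 216 (−0.22, 0.388), and Sdhc at 65.0 and 58.3 against 75.2 and 69.3 (−0.23, 0.342). Sdhd was higher in both knockout libraries and the 3 others were lower in both. Among the rest, Ndufa6 (0.52), Uqcrh (0.45) and Atp5g2 (0.33) had the largest positive values of complexes I, III and V among genes at 5 CPM or more. Ndufa4 (−0.48) and Cox7a1 (−0.51) had the lowest of complexes I and IV. The 7 core subunits of complex I stayed between −0.19 and 0.07. Over the 79 members 35 were above 0 and 44 below, against 48.2% and 51.8% of all genes.

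Groups did not overlap for 20 members that were higher and 30 that were lower in the knockout, of 79, against 27% and 28.9% of all genes. None of 42 assembly factors, 8 outside carriers and subunits, 17 regulators or 78 mitochondrial ribosomal genes was called. Of 80 cytosolic ribosomal genes 78 were above 0, with a median of 0.40 and 0 called. They summed to 110820 and 128300 CPM in the knockout and 95210 and 95988 in Control, and the part of this in the members' CPM was not tested.

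**Figure D4:**
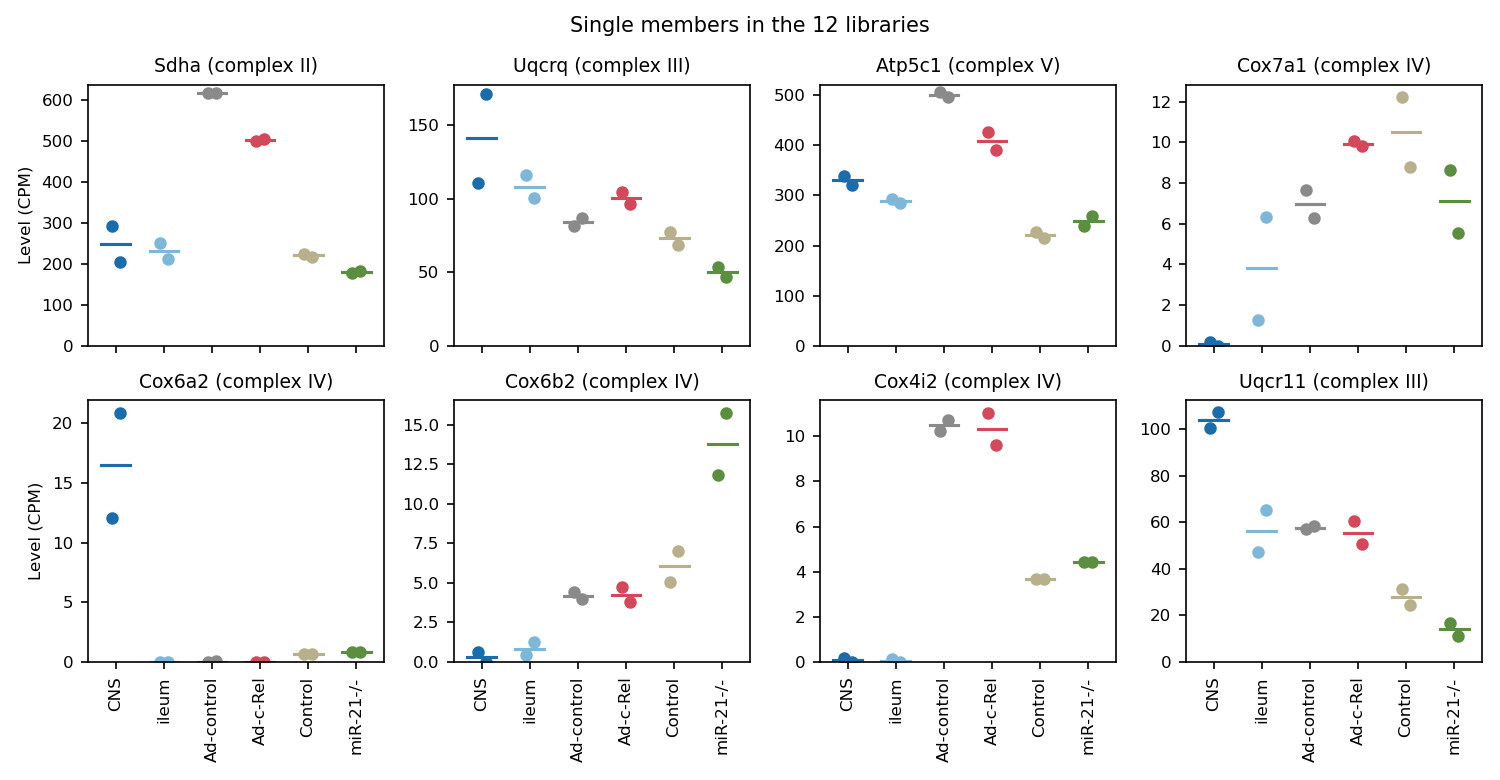
Level in CPM (linear axes from 0) of 8 members in the 12 libraries; points are single libraries and bars are group means. Cox6a2 is seen at 12.1 and 20.9 CPM in CNS, Cox4i2 in the cultured cells, and Uqcrq and Sdha with no overlap between Ad-c-Rel and Ad-control.

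The comparisons use separate libraries, so the same gene can be read in all 3. Uqcrq rose with c-Rel (0.31), had a fitted value of −0.48 in the miR-21 knockout, and its CNS libraries, at 102 and 162 scaled CPM, overlapped with the ileum libraries, at 127 and 106. Uqcr11 was at −0.93 in the knockout and 0.69 in CNS against ileum. Ndufa1 was below 0 in both of those comparisons, at −0.45 and −0.81. Sdha was at −0.23, −0.22 and −0.10 in the c-Rel, knockout and tissue comparisons, of which only the c-Rel value passed the test.

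The promoters share letters that the choice by symbol did not use. RefSeq promoter windows (GRCm38.p6, 250 bases before to 50 after a start, the first listed for each gene) were found for 69 of the 84 genes. Some listed starts lie inside the gene: the window of Cox7a2 is chr9:79759804-79760103, minus strand, and the gene runs to 79771422. The windows were searched on both strands for short motifs of factors known to act on respiratory genes. The NRF1 motif, GCGC followed by A, any base and a further GCGC, was in 16 windows, 23.2%, against 4.78% of all 27025 promoters. The letters CCGGAAG of GABP and other ETS factors were in 21.7% against 9.12%, and the YY1 letters AAGATGGC in 13% against 2.88%. At least 1 of these 3 was in 35 windows, 50.7%, against 15.2%. The 69 windows of mitochondrial ribosomal genes had 18.8%, 36.2% and 17.4% for the same motifs. Member windows were also richer in G and C, with a median of 57.3% against 52.7%.

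Of the 69 windows, 33 were of complex I, 3 of complex II, 5 of complex III, 13 of complex IV and 15 of complex V. The spread of the motifs over the complexes was not tested. Of the 9 windows with YY1 letters, 7 belonged to complex I and 2 to complex V. NRF1 letters were in 5 of 15 windows of complex V and 1 of 13 of complex IV. The shorter GC box GGGCGG was in 42% against 35.9%, and the ERR letters TCAAGGTCA in 2.9% against 0.407%. In 1 window matches of different motifs overlapped. A match is a description of letters and not a measured site.

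The 90 bases before the start are printed for the 2 members that fell with c-Rel, for Cox7a1, which rose, and for Sdhd and Uqcr11, each 5′ to 3′ on the gene's strand. Capitals mark matches of the NRF1 letters (Sdha, Sdhd) and the ETS letters (Sdhd, on the opposite strand, and Uqcr11). The 2 others hold no match to the 5 motifs in the whole window.

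Sdha, chr13:74350241-74350330, minus strand: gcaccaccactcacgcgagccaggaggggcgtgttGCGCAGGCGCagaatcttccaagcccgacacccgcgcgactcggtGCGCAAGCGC

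Sdhd, chr9:50603850-50603939, minus strand: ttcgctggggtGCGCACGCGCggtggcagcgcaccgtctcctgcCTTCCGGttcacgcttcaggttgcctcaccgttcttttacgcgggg

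Uqcr11, chr10:80406822-80406911, minus strand: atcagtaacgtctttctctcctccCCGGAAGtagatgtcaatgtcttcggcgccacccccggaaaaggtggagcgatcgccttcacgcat

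Atp5c1, chr2:10080511-10080600, minus strand: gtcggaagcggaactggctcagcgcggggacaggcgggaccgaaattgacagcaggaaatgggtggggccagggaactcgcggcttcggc

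Cox7a1, chr7:30184081-30184170, plus strand: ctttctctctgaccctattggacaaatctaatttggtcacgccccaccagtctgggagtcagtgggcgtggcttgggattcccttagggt

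Sdha holds the NRF1 letters at 2 places within these 90 bases. Sdhd also holds the GC box and ERR letters within its whole window of 300 bases. Atp5c1 holds no match to any of the 5 motifs, so it can share none with Sdha. A link of the motifs to the differences with c-Rel was not tested.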

How the data were processed

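RNA-seq was deposited as 1 table of counts per library, with whole-number read counts per gene symbol that the authors made. Per the submitters' processing notes, which give no role or order, the tools were HTSeq 0.11.0, TopHat2 2.1.0, Trim Galore 0.4.4, CASAVA 1.4, DESeq2, HOMER, SAMtools and Bowtie2, and the build was mm10. The strand setting is not given in the sources used here, so overlapping genes cannot be told apart. The 5 summary lines that name no gene, 14.7% to 26.1% of each table, were left out of library sizes and tests.

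CPM are counts per 1000000 gene counts. With edgeR 4.0.16 (R 4.3.3), all genes of the 4 libraries of a comparison were filtered by filterByExpr, scaled by TMM and put through the two-sided quasi-likelihood F test, with Benjamini-Hochberg adjustment and a threshold of 0.05. Scaled CPM are CPM after TMM. An SE was derived from the F statistic (size of the log2 fold change divided by its root), so it restates the test. Groups of 2 leave 2 residual degrees of freedom. Reads carried no molecular identifiers, so intervals (95%) and the floor of 3 counts express counting error alone. The script was tested on simulated counts.

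Named members are, per comparison, those called, the extremes of each complex at a mean of 5 CPM or more, the 5 of smallest p where none is called, the tissue-restricted isoforms with their partners, the Atp5g and Sdh genes and the complex I core subunits; other lists give up to 3 called genes each. Members and lists were chosen with earlier results of these data known. Counts over the members are set beside those over all genes and were not tested. All 84 symbols matched a RefSeq gene and 69 had a promoter sequence. Untested members were, in each comparison, Cox7b2, Cox8b, Cox8c, Ndufa4l2 and Ndufs5, with Cox4i2 also in CNS against ileum and Cox6a2 also in Ad-c-Rel against Ad-control. Alternatives were RLE factors, library totals, DESeq2 1.42.0, no filter, a replicate block, 1 fit over all 12 libraries, T cell scaling, and leaving out each library or the non-subunit symbols.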

Additional observations from a re-analysis of the deposited data

How the results depend on the processing

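In CNS against ileum (1 higher, 0 lower), library totals gave 2 higher, DESeq2 7 higher and 9 lower, no filter on low counts 5 and 3, 1 fit over all 12 libraries 8 and 12, T cell scaling 5 higher, and leaving out 1 library 0 to 1 higher. Members called were 20.5% with DESeq2 and 25.3% with the fit over 12 libraries, beside 29.5% and 29% of all genes. The members' median became 0.41 with T cell scaling. Among the members whose fold change is printed, Sdhd and Sdha changed sign with library totals (0.024 and 0.11) and T cell scaling (0.27 and 0.36). They ranged from −0.33 to 0.0029 and from −0.40 to 0.092 when 1 library was left out. In Ad-c-Rel against Ad-control (2 and 2), library totals gave 0 higher and 4 lower with a median of −0.026, DESeq2 1 higher, the fit over 12 libraries 0 and 0 beside 0.138% of all genes, and leaving out 1 library 0 to 1 higher and 0 lower, with 0 higher without the first Ad-c-Rel library. That fit takes its spread from all 6 groups. Signs were followed across settings only for the members whose fold change is printed. Among them, Sdhb (−0.024) and Cox4i2 (−0.023) changed sign with library totals. With 1 library left out Cox7a2 ranged from −0.14 to 0.0097, Cox4i2 from −0.065 to 0.12 and Cox6b2 from −0.082 to 0.22. In miR-21-/- against Control (0 and 0), DESeq2 gave 1 higher and 1 lower, leaving out 1 library 0 to 4 higher and 0 to 2 lower, with a median of −0.048 to 0.0079, and the median became −0.093 with library totals and −0.0094 in the fit over 12 libraries. For these changes beyond construction, the cause was not tested.

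Replicate numbers are shared between groups, but no label says that they mark a common animal, batch or day. Same-numbered libraries deviated together with a correlation of 0.0848 in CNS against ileum, 0.0788 in the Ad pair and 0.636 in the miR-21 pair, with only 2 numbers in each. With the replicate block, CNS against ileum gave 0 higher (Cox6a2 adjusted p = 0.0535), the Ad pair 6 higher and 4 lower, and the miR-21 pair 7 higher and 10 lower, 21.5% of the members beside 35.8% of all genes.

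The summed members were 13447 CPM in ileum, 11279 in Ad-control and 7502 in Control with TMM over 12 libraries, and 12306 in Ad-control, 11807 in Ad-c-Rel, 8682 in miR-21-/- and 8888 in Control when cytosolic ribosomal genes were left out of the totals; the TH17(23) groups remained lowest. RLE factors and leaving out the non-subunit symbols changed no count of calls by over 1.5 times.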
